A study of Homo sapiens with 4 samples.

Results

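A set of 10 NF-kB genes was followed in Jurkat cells, an established human T cell leukemia line, with and without short hairpin RNAs against SLEAR. The members were 5 subunit genes (NFKB1, NFKB2, RELA, RELB and REL), the inhibitor genes NFKBIA, NFKBIB and NFKBIE, the kinase gene IKBKB and the cytokine gene LTB. They were chosen by name, each matched exactly 1 transcript row, and together they made up 10 of the 16328 rows of the deposited table. The 3 SLEAR shRNA libraries came from Jurkat cells transduced with a lentiviral hairpin vector aimed at SLEAR, and the 1 Control library from Jurkat cells given a control shRNA, per the series' design text, whose sequence is not stated. The labels do not say whether SLEAR shRNA-1, -2 and -3 were different hairpins or repeats, nor whether they came from separate cultures, so p-values measure only how these libraries vary, possibly for technical reasons. Libraries were read at the 3' ends of polyadenylated RNA by MAPS, a multiplexed 3' tag method, and values are RPM, reads scaled to the library's total, as deposited. Where 3 SLEAR shRNA values are listed they stand in the order SLEAR shRNA-1, -2, -3.

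NF-kB transcription factors are dimers of Rel proteins. In the canonical pathway, RELA or REL paired with p50, the product of NFKB1, is held in the cytoplasm by IkB proteins until the IkB kinase, whose main catalytic subunit here is IKBKB, marks them for destruction. In the noncanonical pathway, receptors for ligands such as lymphotoxin stabilise the kinase NIK, which acts through CHUK to turn p100, the product of NFKB2, into p52, the partner of RELB. T cells use the canonical pathway downstream of their antigen receptor, and lymphoid cells make lymphotoxin beta, the product of LTB. NFKB1, RELA, REL, NFKBIA, NFKBIB, NFKBIE and IKBKB are treated below as 7 canonical members, and NFKB2, RELB and LTB as 3 noncanonical ones.

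NF-kB is known to act on several of its own genes, so the promoters of the tested members that held a match are shown, with matches to the kB consensus, the sequence that Rel dimers bind, in capitals. Each is a RefSeq window of 300 bases, from 250 before to 50 after a transcript start, on build GRCh38.p14, written 5′ to 3′ on the gene's strand. The NFKB2 windows lie at chr10:102394328-102394627 and chr10:102395455-102395754 on the plus strand, LTB at chr6:31582376-31582675 on the minus strand, NFKBIA at chr14:35404700-35404999 on the minus strand, REL at chr2:60881324-60881623 on the plus strand and NFKBIB at chr19:38899719-38900018 on the plus strand.
NFKB2, first window: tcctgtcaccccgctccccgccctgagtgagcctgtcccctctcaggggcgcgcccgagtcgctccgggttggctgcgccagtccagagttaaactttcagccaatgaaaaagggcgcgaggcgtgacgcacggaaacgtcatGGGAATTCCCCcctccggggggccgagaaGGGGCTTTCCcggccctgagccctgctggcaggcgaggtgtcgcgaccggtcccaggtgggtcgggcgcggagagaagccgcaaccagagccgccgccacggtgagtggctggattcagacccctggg
NFKB2, second window: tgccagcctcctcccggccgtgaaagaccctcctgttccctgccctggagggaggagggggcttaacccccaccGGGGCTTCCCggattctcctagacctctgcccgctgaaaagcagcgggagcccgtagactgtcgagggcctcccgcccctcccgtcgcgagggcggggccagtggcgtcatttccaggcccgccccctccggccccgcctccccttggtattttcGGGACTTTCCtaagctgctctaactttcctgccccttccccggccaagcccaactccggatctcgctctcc
LTB: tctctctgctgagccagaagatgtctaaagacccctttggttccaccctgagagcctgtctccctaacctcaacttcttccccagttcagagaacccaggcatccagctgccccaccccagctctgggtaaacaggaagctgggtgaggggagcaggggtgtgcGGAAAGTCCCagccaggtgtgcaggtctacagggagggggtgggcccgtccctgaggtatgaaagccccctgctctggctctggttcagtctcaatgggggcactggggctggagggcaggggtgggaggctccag
NFKBIA: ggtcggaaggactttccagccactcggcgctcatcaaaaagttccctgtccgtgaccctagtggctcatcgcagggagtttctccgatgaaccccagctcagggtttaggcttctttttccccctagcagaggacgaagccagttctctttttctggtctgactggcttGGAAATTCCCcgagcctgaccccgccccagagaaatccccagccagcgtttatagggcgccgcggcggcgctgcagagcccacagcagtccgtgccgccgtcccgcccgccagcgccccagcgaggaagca
REL: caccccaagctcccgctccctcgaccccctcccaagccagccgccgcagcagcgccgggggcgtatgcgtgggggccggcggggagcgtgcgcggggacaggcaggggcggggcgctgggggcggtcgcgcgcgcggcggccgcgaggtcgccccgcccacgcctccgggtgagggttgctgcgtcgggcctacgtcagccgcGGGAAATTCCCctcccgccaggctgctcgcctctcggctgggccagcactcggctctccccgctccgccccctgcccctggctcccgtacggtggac
NFKBIB: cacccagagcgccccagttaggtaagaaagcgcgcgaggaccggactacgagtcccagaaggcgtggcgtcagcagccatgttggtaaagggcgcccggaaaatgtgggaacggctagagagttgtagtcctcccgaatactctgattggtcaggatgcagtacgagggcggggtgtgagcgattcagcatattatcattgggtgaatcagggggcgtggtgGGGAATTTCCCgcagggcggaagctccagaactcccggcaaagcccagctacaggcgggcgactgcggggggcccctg
Among the members looked up, 7 had a window in the RefSeq table. IKBKB was not looked up, and RELB and NFKBIE had no window there. Of these 7 members, 6 held a kB consensus match on either strand in at least 1 window. RELA held none in its 2 windows. NFKB1, whose window is not shown because the gene had at most 3 reads in any library, held its match 49 bases before the start. Matches on both strands can overlap, and the capitals in REL and NFKBIB and the first stretch in NFKB2 each cover 2 matches that are 1 base apart. Of all 27305 genes with a window, 7.09% held such a match, while the looser pattern GGGNNNNNCC, searched on both strands, was in 58.7% of all 35116 windows. The match began 86 bases before the start in LTB, 81 in NFKBIA, 47 in REL and 28 in NFKBIB. The match does not separate members by their values, since NFKB2 and LTB lay above Control in each SLEAR shRNA library whereas NFKBIA, NFKBIB and REL did not.

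Over the whole table, estimated depths were 7048622, 7524266 and 4814167 reads for SLEAR shRNA-1, -2 and -3 and 8384885 reads for Control, and SLEAR shRNA-3 had 42.5% of rows at 0, against 14.2% to 18.3% in the other libraries. No row is named SLEAR, so the knockdown was not checked. T cell markers summed to 4349 to 4452 RPM in SLEAR shRNA libraries and 4002 RPM in Control, although CD3G was at or near 0 in each library. Markers of myeloid cells, epithelial cells and fibroblasts summed to at most 3.19 RPM in any library. With limma-trend on log2(RPM + 1), of 12350 rows that reached 1 RPM in any library, 0 rows (0%) were called higher and 0 (0%) lower at the threshold of 0.05 for the adjusted p. Without adjustment, limma-trend gave 92 rows above and 239 below Control at that threshold, and limma-voom on estimated reads, which also called 0 rows, gave 69 and 222. No member passed, 0 of the 9 tested had an unadjusted p under 0.05, and the smallest adjusted p among them was 0.993. With 1 Control library, an exact one-sided permutation test over the 4 libraries cannot give a p under 0.25.

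The noncanonical members lay above Control in each SLEAR shRNA library: 3 of 3, where 17.8% of tested rows did so. RELB, under 1 RPM in Control, was among the tested rows only through the SLEAR shRNA libraries, so its place there depends on its direction and the count is a description. NFKB2, RELB and LTB all held this direction under 2 other scalings. In RNA from whole cultures, more or fewer cells with a transcript and more or less of it per cell cannot be told apart. NFKB2, which encodes p100, was at 16.9, 17.4 and 24.5 RPM in the 3 SLEAR shRNA libraries, against 8.62 RPM in Control. Control was the lowest library, SLEAR shRNA-1 and -2 lay close together, and SLEAR shRNA-3 was the highest. The mean was 19.6 ± 4.26 RPM (SD, n = 3), and the log2 difference on the log2(RPM + 1) scale was 1.08 ± 0.46 (SE), which did not pass (limma-trend adjusted p = 0.993). With about 119, 131 and 118 reads in SLEAR shRNA-1, -2 and -3 and 72 in Control, the ratio to Control had exact 95% intervals of 1.46 to 2.67, 1.51 to 2.74 and 2.11 to 3.88. These intervals compare libraries, not conditions, and cover counting error only.

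RELB, the partner of p52, was at 2.13, 2.66 and 9.35 RPM in the 3 SLEAR shRNA libraries, against 0.954 RPM in Control. SLEAR shRNA-3 stood well above the other SLEAR shRNA libraries, and Control was the lowest. These are about 15, 20 and 45 reads in the SLEAR shRNA libraries and 8 in Control, so the interval of the ratio included 1 for SLEAR shRNA-1 (0.888 to 6.07) and not for SLEAR shRNA-2 (1.18 to 7.31) or SLEAR shRNA-3 (4.57 to 24.1). The log2 difference was 1.33 ± 1.01 (SE), with a limma-trend adjusted p of 0.993, and 0.79 without SLEAR shRNA-3. With a pseudocount of 5 it was 0.63.

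LTB, the membrane-anchoring subunit of lymphotoxin, was at 33.6, 42.8 and 31.8 RPM in the 3 SLEAR shRNA libraries, against 28.3 RPM in Control. All 3 lay above Control, but the interval of the ratio included 1 for SLEAR shRNA-1 (0.989 to 1.43) and SLEAR shRNA-3 (0.912 to 1.38), and only that of SLEAR shRNA-2 did not (1.28 to 1.80). Its log2 difference was 0.33 ± 0.32 (SE), with a limma-trend adjusted p of 0.993, and 0.20 without SLEAR shRNA-2. LTB lies beside TNF on the chromosome, followed by LTA, the gene of the soluble lymphotoxin subunit. TNF was at 56.7, 60.1 and 18.9 RPM, against 35.3 RPM in Control, so it lay above Control in SLEAR shRNA-1 and -2 and below it in SLEAR shRNA-3. LTA was at 6.10, 6.38 and 9.35 RPM, against 6.80 RPM in Control. The 3 neighbouring genes thus did not share an order across the libraries.

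B cell markers lay in the same direction as the noncanonical members. They summed to 26.0, 24.1 and 31.6 RPM in the 3 SLEAR shRNA libraries and 17.5 RPM in Control, nearly all from CD79A and BLK, and 2 of 3 tested rows were above Control in each SLEAR shRNA library, of which CD79B was tested only through those libraries. The part of B cell markers in the result was not tested.

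**Figure D1:**
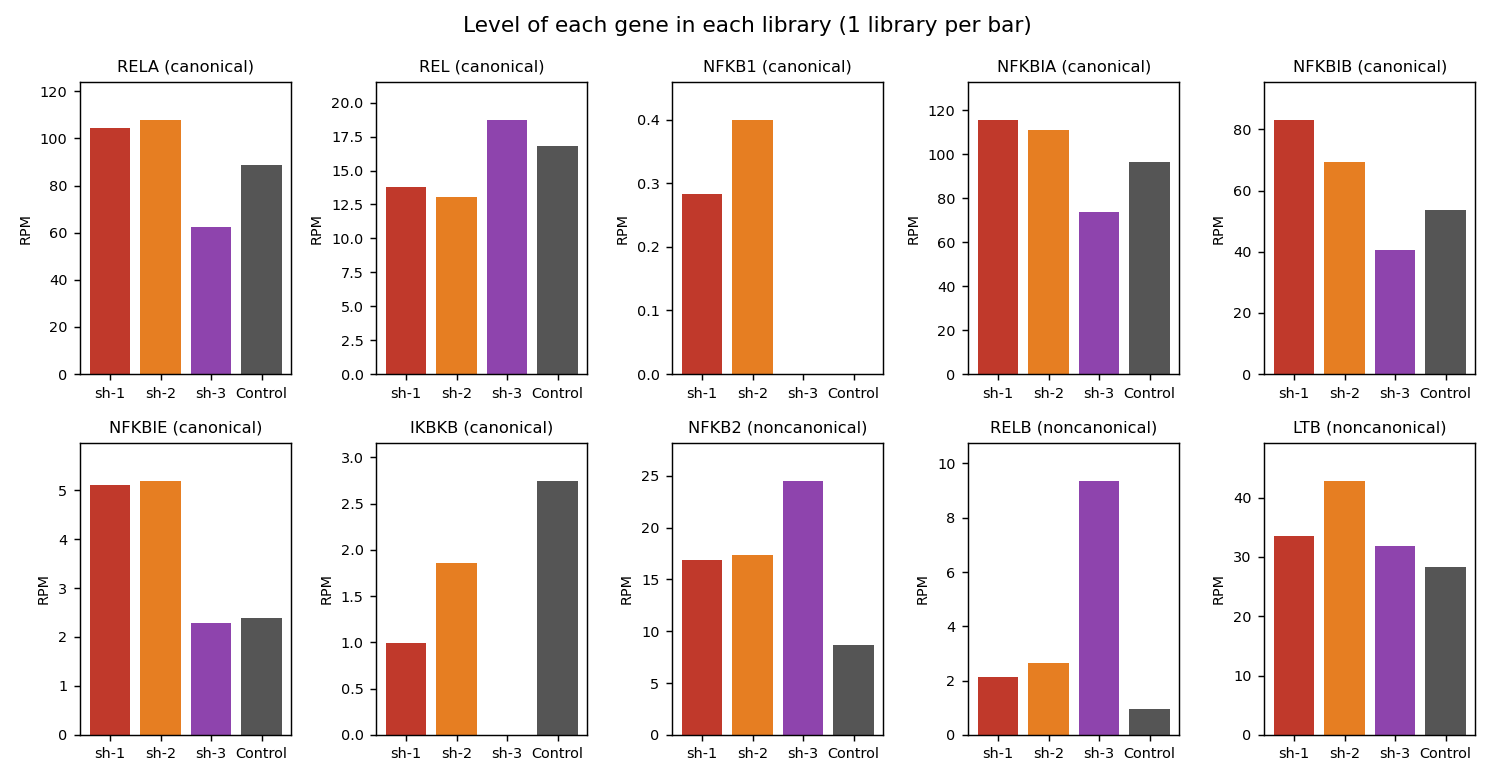
RPM of each of the 10 genes in SLEAR shRNA-1, -2 and -3 (sh-1 to sh-3) and Control, with 1 bar per library and a separate axis from 0 for each gene. NFKB2, RELB and LTB have their lowest bar in Control, while RELA, NFKBIA and NFKBIB have theirs in SLEAR shRNA-3.

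Among the canonical subunits, RELA, the main transactivating subunit, was at 105, 108 and 62.3 RPM in the 3 SLEAR shRNA libraries, against 88.6 RPM in Control. SLEAR shRNA-1 and -2 lay above Control and SLEAR shRNA-3 below it, and the fitted log2 difference was 0.00 ± 0.39 (SE). REL, which encodes c-Rel, had the opposite order, at 13.8, 13.0 and 18.7 RPM, against 16.8 RPM in Control, an order that 12.3% of tested rows had. Its log2 difference was -0.16 ± 0.46 (SE), or -0.31 without SLEAR shRNA-3 and -0.063 without SLEAR shRNA-2, and the counting interval of the ratio to Control included 1 in each SLEAR shRNA library. NFKB1, which encodes p105 and p50, was at 0.284, 0.399 and 0 RPM, against 0 RPM in Control. That is at most 3 reads in any library, so no fold is given and the gene was not tested, and 0 reads in Control allow up to 0.358 RPM.

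The inhibitor genes also lay above Control in SLEAR shRNA-1 and -2 and below it in SLEAR shRNA-3. NFKBIA, which encodes IkB alpha, was at 115 RPM in SLEAR shRNA-1, 111 RPM in SLEAR shRNA-2 and 73.7 RPM in SLEAR shRNA-3, against 96.4 RPM in Control, with a log2 difference of 0.03 ± 0.33 (SE). NFKBIB, which encodes IkB beta, was at 83.0, 69.4 and 40.7 RPM, against 53.8 RPM in Control, with a log2 difference of 0.19 ± 0.46 (SE), or 0.49 without SLEAR shRNA-3. NFKBIE, which encodes IkB epsilon, was at 5.11, 5.18 and 2.28 RPM, against 2.39 RPM in Control, with a log2 difference of 0.56 ± 0.81 (SE), or 0.86 without SLEAR shRNA-3 and 0.30 with a pseudocount of 5. None of the 3 passed (limma-trend adjusted p of 0.993 to 0.996). RELA, NFKBIA, NFKBIB and NFKBIE thus lay above Control in SLEAR shRNA-1 and -2 and below it in SLEAR shRNA-3. They were 4 of the 6 tested canonical members, and 15.7% of tested rows had this order. For RELA, NFKBIA and NFKBIB the counting intervals of the ratio to Control lay above 1 in SLEAR shRNA-1 and -2 and below 1 in SLEAR shRNA-3. For NFKBIA these were 1.09 to 1.32, 1.05 to 1.27 and 0.674 to 0.868. For NFKBIE, at about 11 reads in SLEAR shRNA-3 and 20 in Control, the interval in SLEAR shRNA-3 included 1 (0.415 to 2.10).

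IKBKB, the kinase gene, was at 0.993, 1.86 and 0 RPM in the 3 SLEAR shRNA libraries, against 2.74 RPM in Control. It was the 1 member of 10 below Control in every SLEAR shRNA library, where 28.6% of tested rows were. The log2 difference was -1.07 ± 0.82 (SE), with a limma-trend adjusted p of 0.993, and rested on about 7, 14 and 0 reads against 23 in Control. It was -0.65 without SLEAR shRNA-3, -2.25 with a pseudocount of 0.1 and -0.39 with one of 5. A 0 in SLEAR shRNA-3 says little at this level: where both other SLEAR shRNA libraries had 1 to 2 RPM, SLEAR shRNA-3 had no reads in 63.1% of rows and Control in 8.20%.

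**Figure D2:**
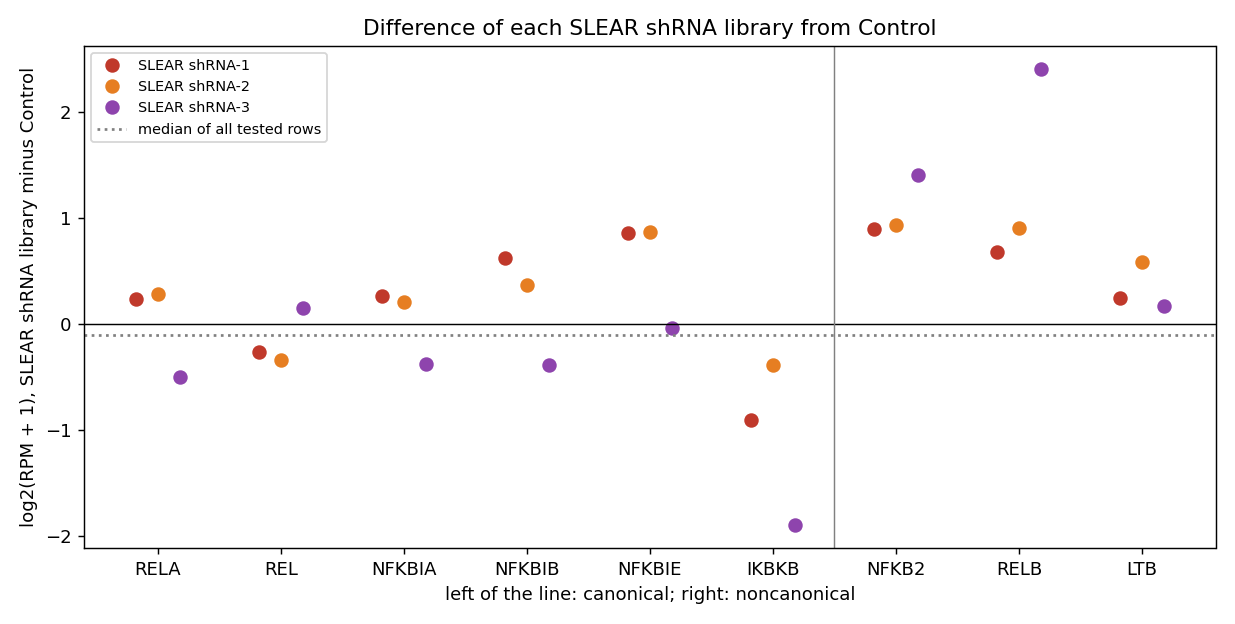
Difference in log2(RPM + 1) of each SLEAR shRNA library from Control for the 9 tested genes, canonical left and noncanonical right of the vertical line; the dotted line is the median fitted difference of all tested rows, -0.11. The noncanonical points all lie above 0, and SLEAR shRNA-3 lies apart from SLEAR shRNA-1 and -2 for most canonical genes.

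Set against each other, the 7 canonical members had median log2 differences from Control of 0.26, 0.28 and -0.38 in SLEAR shRNA-1, -2 and -3, and the 3 noncanonical members of 0.68, 0.90 and 1.41. NFKB1, with at most 3 reads, is among the 7, and without it the canonical medians were 0.25, 0.24 and -0.39. Over all tested rows the medians were -0.02, -0.04 and -0.23. The canonical median minus the noncanonical median was -0.42, -0.63 and -1.79 in the 3 libraries. Taken over each gene's mean of the 3 libraries, it was -1.05, or -0.53 without SLEAR shRNA-3 and -1.06 without NFKB1. The difference thus kept its sign in each library but was largest in SLEAR shRNA-3. All 3 share 1 Control, and no test of the difference is given because the members were chosen with results of these data known.

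Ratios within a library do not depend on the scaling between libraries. They compare the 3' tags of 2 genes, not their molecules, so only the difference between libraries is read. The ratio of NFKB2 to RELA in RPM was 0.161, 0.161 and 0.393 in SLEAR shRNA-1, -2 and -3, against 0.0973 in Control, and that of RELB to RELA 0.0204, 0.0247 and 0.150, against 0.0108. The ratio of LTB to RELA was 0.322, 0.398 and 0.51, against 0.319, so SLEAR shRNA-1 was close to Control. NFKBIB and NFKBIE also had a higher ratio to RELA in each SLEAR shRNA library. This made 5 of the 8 members with a ratio, where 12.7% of tested rows had this order. RELB was tested only through the SLEAR shRNA libraries, so this count too is a description. RELA itself lay above Control in SLEAR shRNA-1 and -2, which lowers every ratio there. It lay below Control in SLEAR shRNA-3, which raises every ratio in that library. IKBKB had a lower ratio in each SLEAR shRNA library, at 0.00950, 0.0173 and 0, against 0.0310 in Control, an order that 28% of tested rows had. For NFKBIE it was 0.0489, 0.0482 and 0.0367, against 0.0269 in Control. The ratio of NFKBIA to RELA stayed near that of Control, at 1.10, 1.03 and 1.18, against 1.09, and Control lay within the range of the SLEAR shRNA libraries. REL to RELA was 0.132, 0.121 and 0.30, against 0.190 in Control.

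**Figure D3:**
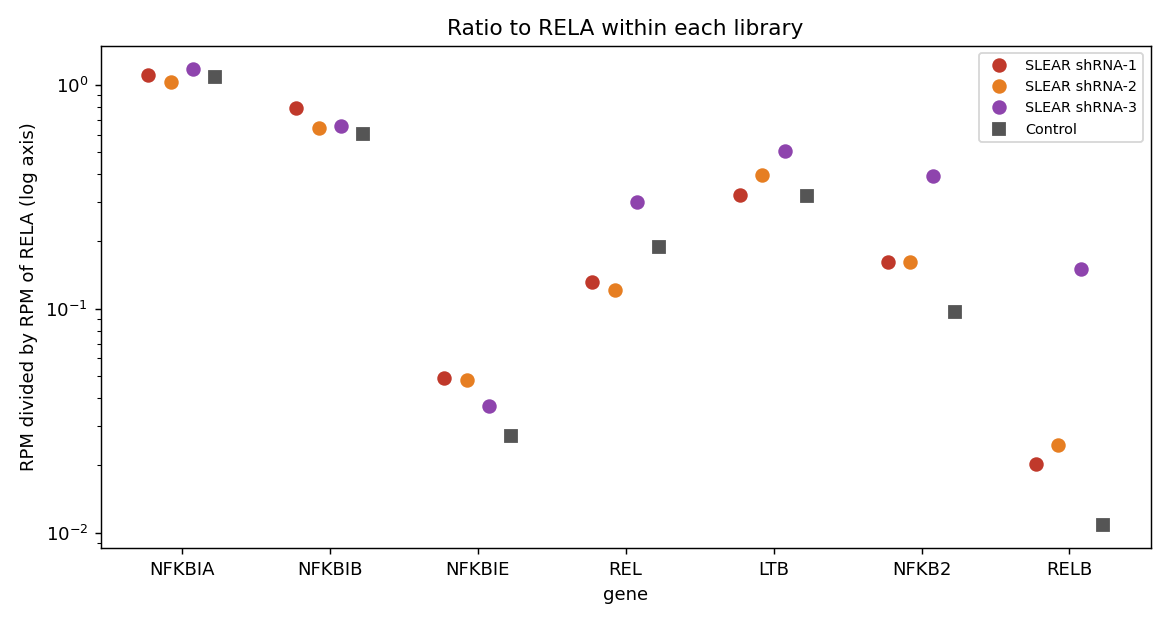
RPM of 7 genes divided by the RPM of RELA in the same library, on a log axis, with circles for the SLEAR shRNA libraries and squares for Control. NFKB2 and RELB have all 3 circles above the square, with SLEAR shRNA-3 the highest, and the ratio of NFKBIA lies between 1.03 and 1.18 in the 4 libraries.

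The other genes of the pathway were examined as 4 lists, 63 tested rows in all. In none of the lists did a row pass limma-trend over all rows, and without adjustment 1 row was above Control (COMMD1) and 1 below it at the threshold of 0.05. The second was NFKBID, a nuclear IkB protein, named after its values were seen and tested only because it reached 1 RPM in Control, at 0.426, 0 and 0 RPM in the 3 SLEAR shRNA libraries, against 2.27 RPM in Control. Among 12 tested rows of noncanonical signalling, 1 lay above and 5 below Control in every SLEAR shRNA library (17.8% and 28.6% of all tested rows), with a median log2 difference of -0.06, against -0.11 over all tested rows. CHUK, the kinase that acts on p100, was at 62.4, 68.7 and 70.2 RPM in the 3 SLEAR shRNA libraries, against 98.3 RPM in Control. The 3 values lay close together and below Control, with a log2 difference of -0.55 ± 0.22 (SE) and a limma-trend adjusted p of 0.993. MAP3K14, which encodes NIK, was at 6.67, 9.70 and 6.23 RPM, against 10.3 RPM in Control. TRAF3, which holds NIK levels down, was at 59.4, 44.9 and 61.1 RPM, against 61.3 RPM. OTUD7B, a deubiquitinase that stabilises TRAF3, was at 6.81, 6.65 and 4.78 RPM, against 10.4 RPM. Of the ligands, TNFSF14, known as LIGHT, lay above Control in each library, at 6.95, 4.12 and 12.3 RPM, against 2.98 RPM in Control. TRAF2 was at 64.1, 49.0 and 69.4 RPM, against 52.2 RPM, and BIRC3, which with TRAF2 marks NIK for destruction, at 5.11, 3.85 and 0 RPM, against 5.13 RPM. A 0 in SLEAR shRNA-3 says little at this level either. That library had no reads in 44.3% of rows at 2 to 4 RPM in both other SLEAR shRNA libraries, and in 24.6% at 4 to 8 RPM. So the upstream kinases CHUK and MAP3K14 lay below Control in the libraries where NFKB2 and RELB lay above it. None of these differences passed in the fit with all 3 SLEAR shRNA libraries.

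Of 26 tested rows of canonical signalling, 4 lay above and 7 below Control in every SLEAR shRNA library, close to the 17.8% and 28.6% of all tested rows, and the median log2 difference was -0.10. MALT1, the paracaspase that links the antigen receptor to the IkB kinase, was at 7.52, 3.19 and 0 RPM in the 3 SLEAR shRNA libraries, against 12.8 RPM in Control. As for BIRC3, SLEAR shRNA-1 and -2 put MALT1 between 2 and 8 RPM, where SLEAR shRNA-3 often had no reads. The Control value of MALT1 was higher. For rows at 8 to 16 RPM in both other SLEAR shRNA libraries, SLEAR shRNA-3 had no reads in only 7.87%. MYD88, the adaptor of Toll-like receptors, was at 72.4, 76.4 and 44.9 RPM, against 84.6 RPM. RIPK1, a kinase of the TNF receptor complex, was at 26.2, 22.6 and 13.7 RPM, against 26.6 RPM, and TAB2, of the TAK1 kinase complex, at 11.3, 9.30 and 12.5 RPM, against 14.3 RPM. UBE2V1, part of the enzyme that builds ubiquitin chains in this pathway, was at 24.5, 25.7 and 25.1 RPM, against 20.2 RPM, in a row shared with the readthrough transcript TMEM189-UBE2V1. MALT1 had the widest spread of these genes on the log2 scale, with an SE of 1.41, and the values of MYD88 and RIPK1 were lowest in SLEAR shRNA-3.

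Of 10 tested rows of other IkB proteins and negative regulators, 1 lay above and 3 below Control in every SLEAR shRNA library, against 17.8% and 28.6% of all tested rows, with a median log2 difference of -0.18. COMMD1, which promotes the removal of RELA from chromatin, was at 73.3, 72.7 and 62.1 RPM in the 3 SLEAR shRNA libraries, against 38.6 RPM in Control. All 3 lay well above Control, with a log2 difference of 0.82 ± 0.24 (SE) and a limma-trend adjusted p of 0.993. NKIRAS2, a Ras-like protein that binds IkB, was at 267, 246 and 125 RPM, against 204 RPM. N4BP1 was at 9.79, 11.96 and 3.53 RPM, against 14.1 RPM. TNIP1 and TNIP2, partners of A20, had SLEAR shRNA-3 above Control and the other SLEAR shRNA libraries below it. TNIP2 was at 18.6, 17.3 and 49.0 RPM, against 27.9 RPM, and TNIP1 at 16.03, 12.2 and 24.9 RPM, against 18.2 RPM. BCL3, a nuclear IkB protein that binds p52, was at 0.142, 0 and 0 RPM, against 0 RPM. TNFAIP3, which encodes A20, was at 0, 0.266 and 0 RPM, against 0.239 RPM. Both were at the limit of detection in every library.

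Of 15 tested rows of NF-kB target genes, 1 lay above and 6 below Control in every SLEAR shRNA library, where 17.8% and 28.6% of all tested rows did, and the median log2 difference was -0.30. GADD45B was at 27.9, 39.2 and 32.2 RPM in the 3 SLEAR shRNA libraries, against 44.5 RPM in Control, and the transcription factor IRF1 at 22.1, 23.5 and 22.2 RPM, against 30.1 RPM. BCL2A1, an anti-apoptotic gene, was at 20.1, 25.1 and 4.95 RPM, against 26.7 RPM, and TNFAIP2 at 6.24, 8.64 and 21.8 RPM, against 13.6 RPM. IER3 was the row above Control in each library, at 26.5, 28.8 and 66.3 RPM, against 25.4 RPM. BCL2A1 and IER3 both departed most from Control in SLEAR shRNA-3, in opposite directions.

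**Figure D4:**
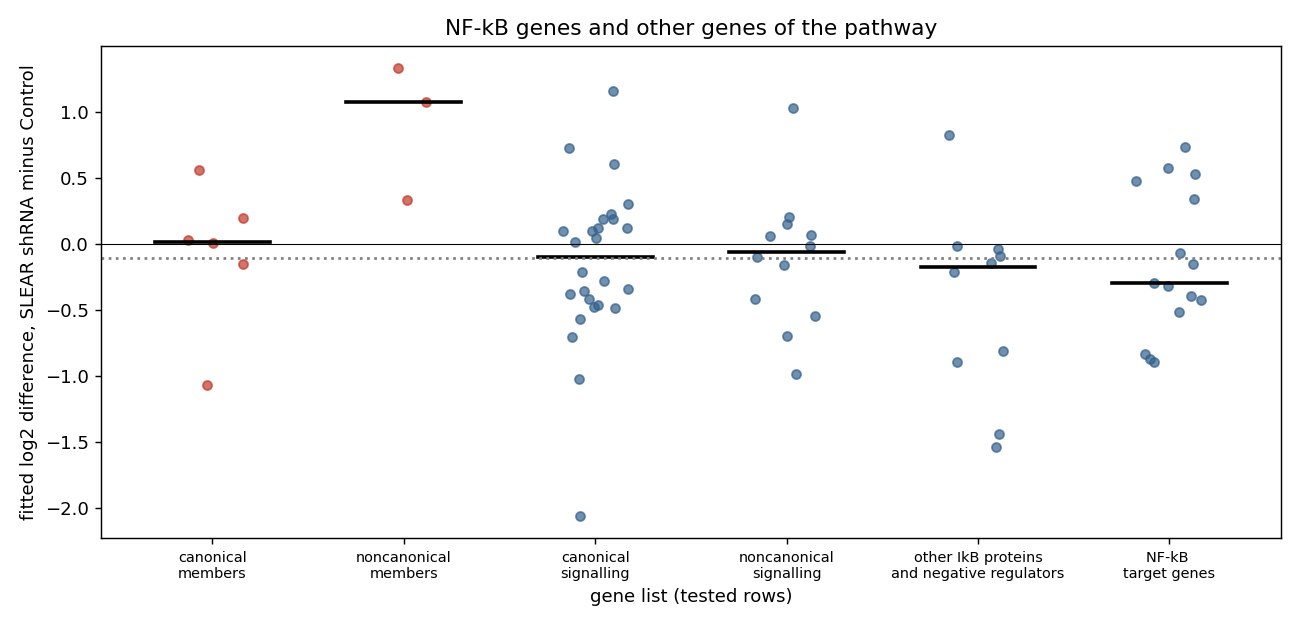
Fitted log2 difference of SLEAR shRNA from Control for the tested rows of each list, with 1 point per row, a bar at the median and the dotted line at the median of all tested rows, -0.11. The noncanonical members lie above 0, while the medians of the 4 lists lie between -0.30 and -0.06.

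SLEAR shRNA-3 stood apart over the whole table, so the fit was repeated without it. It was limited to the 4851 rows whose log2(RPM + 1) averaged 4 or more, of which limma-trend then called 7.11% higher and 7.26% lower. None of the 6 members in that fit passed. NFKB2 was 1.88-fold above Control on the log2(RPM + 1) scale (limma-trend adjusted p = 0.0540, against 0.301 to 1 in its other alternatives), and NFKBIB 1.40-fold (adjusted p = 0.0679, and up to 1 in the others). NFKB1, RELB, NFKBIE and IKBKB were too low for that fit. The average behind this limit was taken over all 4 libraries, SLEAR shRNA-3 included. NFKB2 and REL reached 4 only through SLEAR shRNA-3, where each was highest. Their place in that fit thus depends on the library left out, and their values there are a description. Of 23 list rows in that fit, 2 were called higher and 1 lower, against 7.11% and 7.26% of all rows. COMMD1 was 1.87-fold above Control (limma-trend adjusted p = 0.000287), TNF 1.64-fold above it (adjusted p = 0.00944) and CHUK 1.49-fold below it (adjusted p = 0.0213). With SLEAR shRNA-3 or without that limit on level, the adjusted p of COMMD1, TNF and CHUK was between 0.301 and 1. Each row had 1 residual degree of freedom, from the gap between SLEAR shRNA-1 and -2. Each row's spread was drawn by limma-trend almost wholly from the trend over all rows of that fit, so its own gap counted for little. The single Control library added nothing to the spread. These calls set SLEAR shRNA-1 and -2 against that 1 library, and TNF lay below Control in SLEAR shRNA-3.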

How the data were processed

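Polyadenylated RNA of Jurkat cells was profiled in 3 SLEAR shRNA libraries and 1 Control library. Build hg19 and the tools Bowtie2, FastQC and SAMtools come from the submitters' processing notes. The assignment of reads to transcript rows and any use of strand are not given in the sources used. The authors deposited RPM, so no count test was the main test. Rows that were identical in the 4 libraries and averaged 1 RPM or more were merged, removing 177 of 16328. The analysis used limma-trend (limma 3.58.1, R 4.3.3) on values of log2(RPM + 1). It covered the 12350 rows that reached 1 RPM in any library, with p-values adjusted by Benjamini-Hochberg. With 2 residual degrees of freedom, all from the SLEAR shRNA libraries, Control was assumed to vary like them. The fit was also run on simulated rows with a mean log2 of at least 4 and counting error only. That run does not cover low rows or a wider spread between libraries.

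Reads were estimated from the step between low values; 96.4% to 96.9% of values under 200 reads were whole within 0.05 reads. The values of NFKB2 and NFKBIB fell between whole reads, for a reason the sources used do not give. A value of 0 allows up to 3 reads, or 0.426, 0.399 and 0.623 RPM in the SLEAR shRNA libraries, in order, and 0.358 RPM in Control. No molecular identifiers are stated, so intervals cover counting error only. In the GRCh38 gene table NFKB1, RELA, REL and IKBKB overlap noncoding genes or pseudogenes, and their reads could not be told apart. No hg19 coordinates are given, and the only coordinates are those of the RefSeq promoter windows.

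Members and lists were chosen with earlier results of these data known. Named list genes were the 5 with the smallest p per list at a mean of at least 5 RPM, plus BCL3, TNFAIP3, CHUK, MAP3K14, BIRC3 and TRAF3. Alternatives were other pseudocounts (0.1 and 5), filters, scalings, limma-voom, array weights, summed rows and leaving out each SLEAR shRNA library. Single values of some list genes are not reported here.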

Additional observations from a re-analysis of the deposited data

How the results depend on the processing

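No member had an adjusted p under 0.05 in any alternative run. Without adjustment, NFKB2 was under 0.05 in 4 alternatives and NFKBIB in 1. Of the 81 alternative values for single members that could differ from another, leaving out filters and summed rows, which do not alter a member's log2 difference, 76 kept their direction. The 5 that turned were in RELA (-0.13 to 0.26 when each SLEAR shRNA library was left out), NFKBIA (-0.089 to 0.23) and NFKBIB (-0.017 to 0.49), whose log2 differences lay below 0 without SLEAR shRNA-1 or, for RELA and NFKBIA, without SLEAR shRNA-2, where SLEAR shRNA-3 is 1 of 2 libraries. Over all rows, no filter on low values gave 377 calls (1 higher, 376 lower). Leaving out SLEAR shRNA-3 among rows with a mean log2 of at least 4 gave 697 calls over all rows and 3 in the pathway lists. The canonical median minus the noncanonical median lay between -1.26 and -0.53 in all 11 alternatives that gave one, of which leaving out NFKB1 (-1.06) was chosen after seeing the data, as was counting the pathway lists without SLEAR shRNA-3. NFKB1 is also left out of the values from limma-voom, array weights and the filter on 3 libraries, the last of which also leaves out IKBKB. All 10 members enter without a filter and each has 1 row, so no separate value was computed without a filter or with summed rows. No paired analysis was possible because Control has 1 library. Depth limits NFKB1, NFKBIE, RELB and IKBKB, at 45 reads or fewer in every library.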

Other observations

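A pair of list genes, chosen after their values were seen, was far from the other libraries in SLEAR shRNA-3. ICAM1, an adhesion molecule and NF-kB target, was at 0.284, 1.86 and 14.3 RPM in the 3 SLEAR shRNA libraries, against 2.03 RPM in Control. PRKCQ, a kinase of T cell receptor signalling upstream of NF-kB, was at 11.1, 10.8 and 0.415 RPM, against 7.16 RPM in Control. Neither gene passed the limma-trend test over all rows.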
